A study of Mus musculus with 8 samples.

Results

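The immunity-related GTPases (IRGs) are a family of mostly interferon-induced proteins, and 10 of its genes were examined here in mouse liver: Irgm1, Irgm2, Igtp, Tgtp1, Tgtp2, Ifi47, Iigp1, Gm4841, Gm4951 and the divergent Irgq. They were picked by symbol from the 25239 gene symbols of the count tables, and all 10 were found and had enough reads to be among the 12977 genes tested. The family was chosen by values of the comparison between the groups, so the fold changes of its members are given as a description, without a test. RNA-seq was performed on whole liver of 8 adult male mice of the C57Bl6/J background, 4 per group, all Smo fl/fl. Both groups carried the floxed Smo alleles, also the controls that the labels call wild type, and were fed a diet that lacks choline, holds defined amino acids and has 60% of its energy as fat (CDA-HFD, used to induce steatohepatitis) for 6 weeks. One group received AAV8-TBG-Luciferase (control) and the other AAV8-TBG-Cre (Smo-KO) by tail vein 1 week before sacrifice. The TBG promoter is active in hepatocytes, so Cre deletes Smo, the signal transducer of the Hedgehog pathway, in hepatocytes, while the other cells of the liver keep the gene. RNA of whole liver was read, and fewer cells of a type and less RNA per cell cannot be told apart in it.

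Most IRG proteins are GTPases that cells make in response to interferons, above all interferon gamma, in defense against intracellular parasites and bacteria. The effector IRGs, with a lysine in the first GTP-binding motif (the GKS class), load onto the membrane of the vacuole that holds a pathogen and disrupt it. The regulatory IRGs, with a methionine there (the GMS class), sit on the membranes of the cell itself, hold the effectors inactive and are linked to autophagy. Interferon gamma acts through its receptor and the kinases Jak1 and Jak2. Its target genes often hold the gamma-activated sequence (GAS) or the interferon-stimulated response element (ISRE), which Irf1 among others binds.

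The promoter sequences are shown first because members of the family share an arrangement of these elements. RefSeq promoters, from 250 bases before to 50 bases after the annotated start (GRCm38.p6), could be matched for 7 of the 10 members: Irgm1, Irgm2, Igtp, Tgtp1, Tgtp2, Ifi47 and Irgq. Both strands were searched for the letters TTCNNNGAA (GAS) and GAAANNGAAA (ISRE). The stretches below read 5′ to 3′ on the strand of the gene, with the matching letters in capitals. They lie at chr11:58214882-58214941 (plus strand) for Irgm2, chr11:58199491-58199550 (plus strand) for Igtp, chr11:48992295-48992354 (minus strand) for Tgtp1, chr11:49064254-49064313 (minus strand) for Tgtp2 and chr11:48871428-48871457 (minus strand) for Irgm1.
Irgm2: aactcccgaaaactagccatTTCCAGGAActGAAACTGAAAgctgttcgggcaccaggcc
Igtp: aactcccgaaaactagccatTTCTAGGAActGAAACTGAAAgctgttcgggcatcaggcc
Tgtp1: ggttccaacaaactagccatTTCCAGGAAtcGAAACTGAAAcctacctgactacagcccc
Tgtp2: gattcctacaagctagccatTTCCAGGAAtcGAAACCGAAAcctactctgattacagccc
Irgm1: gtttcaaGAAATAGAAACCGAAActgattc

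In Irgm2, Igtp, Tgtp1 and Tgtp2 a GAS was followed, after 2 bases, by an ISRE on the strand of the gene. The GAS began 75 bases before the RefSeq start of Irgm2, 45 before that of Igtp, 88 before that of Tgtp1 and 81 before that of Tgtp2. This arrangement, whose letters were chosen after the sequences were seen, was found in 5 of 32851 promoters (0.0152%), those of the 4 genes and of Gm12185, another IRG gene. Irgm1 had 2 overlapping ISREs that began 30 and 24 bases before its RefSeq start, and no GAS. Starts differ between annotations. In GENCODE M21, whose gene positions are given further on, Irgm2, Tgtp1 and Irgm1 have transcripts that start farther upstream, so the stretches of Irgm2 and Tgtp1 lie within those genes outside annotated exons, and that of Irgm1 lies in an annotated exon of Irgm1. Neither set of letters was found in the windows of Ifi47 and Irgq. Single matches were far more common, with an ISRE in 3.44% and a GAS in 8.30% of all promoters. A match of letters is a description of the sequence, and binding was not measured.

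**Figure D1:**
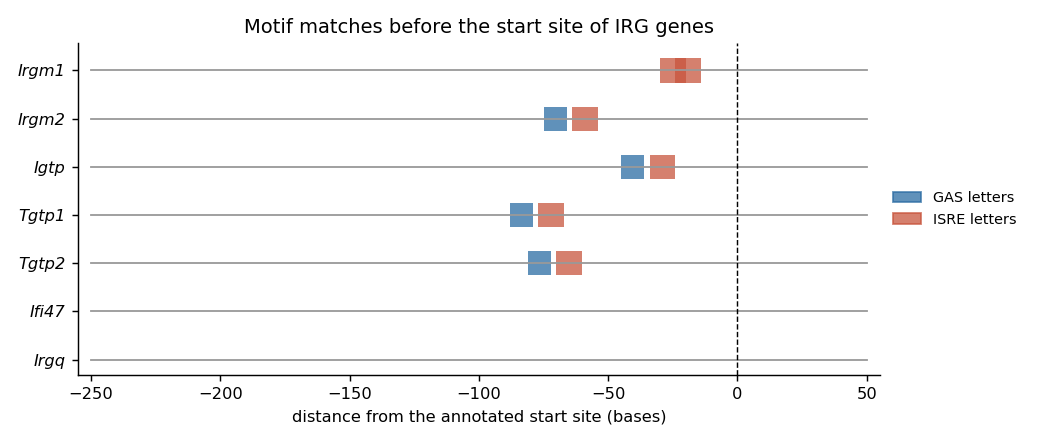
Positions of GAS (blue) and ISRE (red) letters in the promoters of 7 IRG genes; the x axis is the distance in bases from the RefSeq start site (dashed line), and each grey line is the window searched. Irgm2, Igtp, Tgtp1 and Tgtp2 have a GAS directly followed by an ISRE, Irgm1 has 2 overlapping ISREs, and Ifi47 and Irgq have no match.

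Each library held between 8203299 (Smo-KO mouse 3) and 9999732 (control mouse 4) reads on genes, and the number did not differ between the groups beyond their spread (p = 0.257 in a two-sided exact permutation test of 4 against 4 mice). Levels are given as counts per 1000000 reads on genes (CPM), and 3 reads came to 0.297 to 0.366 CPM. The tissue matched its label, with the hepatocyte product Alb at 16570 ± 973 CPM in control and 15340 ± 897 CPM in Smo-KO livers (SD, n = 4). Smo had 8.17, 8.49, 8.74 and 8.21 CPM in the control livers and 5.67, 3.93, 4.27 and 4.37 CPM in the Smo-KO livers. Every Smo-KO liver was below every control liver (log2 fold change -0.88, standard error 0.16). A two-sided exact permutation test gave p = 0.0286, the smallest that 4 against 4 mice can give. In the fit over all genes Smo did not pass the threshold of 0.05 (edgeR quasi-likelihood test, Benjamini-Hochberg adjusted p = 0.0957), and it passed with DESeq2 (adjusted p = 0.00646).

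The mean level of all 10 IRG genes was lower in the Smo-KO livers, by very different amounts. Tgtp2, Gm4841, Tgtp1 and Igtp were at 39.1%, 40.4%, 41.5% and 46.5% of their control means. Irgm1, Irgm2, Ifi47 and Irgq were at 62.5% to 66.6%, and Gm4951 and Iigp1 at 88.4% and 90.3%. The median log2 fold change was -0.65 over the 10 members and -0.0008 over all genes tested. None of the 10 passed an adjusted p of 0.05 in edgeR, where 0.00% of all genes did. At an unadjusted p under 0.05, 8 of the 10 were lower (7.15% of all genes), and Iigp1 and Gm4951 were not among them. With DESeq2 2 members, Gm4841 and Irgq, passed the adjusted threshold as lower (0.655% of all genes). The same 2 genes had groups that did not overlap (4.34% of all genes). These counts restate the comparison by which the family was chosen, and nothing is read from them.

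The 3 regulatory IRGs lie in clusters on chromosome 11 (coordinates are of GRCm38, GENCODE M21). Irgm1 (bases 48861968 to 48871683, minus strand) protects the membranes of the cell and supports autophagy. Control mice 1 to 4 had 118, 242, 245 and 135 CPM of Irgm1, and Smo-KO mice 1 to 4 had 101, 101, 154 and 107 CPM. Control mice 2 and 3 stood far above the other control livers, and Smo-KO mouse 3 lay above control mice 1 and 4. The means were 185 ± 67.9 and 116 ± 25.6 CPM (log2 fold change -0.68, standard error 0.23).

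Irgm2 (bases 58199618 to 58222782, plus strand), a regulator that resides largely at the Golgi, had 80.8, 178, 168 and 96.9 CPM in the controls. The Smo-KO livers had 75.6, 70.4, 121 and 76.0 CPM. The pattern was that of Irgm1, with control mice 2 and 3 high and Smo-KO mouse 3 in between. The means were 131 ± 49.3 and 85.8 ± 23.7 CPM (log2 fold change -0.61, standard error 0.24).

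Igtp (bases 58199556 to 58207591, plus strand), also called Irgm3, is found at the endoplasmic reticulum and on lipid droplets. Its control values were 165, 285, 306 and 226 CPM, against 88.2, 98.3, 177 and 92.4 CPM in the Smo-KO livers. The groups overlapped by 1 liver each, since Smo-KO mouse 3 exceeded control mouse 1. Of the regulatory genes it had the largest difference, 246 ± 63.4 against 114 ± 42.5 CPM (log2 fold change -1.11, standard error 0.23).

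Among the effectors, Tgtp1 (bases 48985327 to 48994172, minus strand) and Tgtp2 (bases 49057194 to 49064206, minus strand) encode the nearly identical Irgb6 proteins, early arrivals at the vacuole of Toxoplasma. Tgtp1 had 44.1, 103, 129 and 73.2 CPM in the 4 controls and 30.2, 30, 57.9 and 26.4 CPM in the Smo-KO livers (log2 fold change -1.28, standard error 0.30). Tgtp2 had 19.4, 59.2, 70 and 41.9 CPM in the controls and 17.3, 15.8, 27.8 and 13.5 CPM in the Smo-KO livers (log2 fold change -1.36, standard error 0.32). For both genes 3 Smo-KO livers lay below all controls, and Smo-KO mouse 3 lay between control mouse 1 and control mouse 4. Close to each other in sequence, they share 73.2% of the 100-base windows of Tgtp1 transcripts, and 76.8% of those of Tgtp2, with other genes, so the division of reads between them is uncertain. With their counts summed the log2 fold change was -1.30 (standard error 0.31).

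Ifi47 (bases 49076587 to 49096974, plus strand), also called Irgd, had the smallest difference of the effector genes on chromosome 11. The control livers had 68.4, 121, 136 and 89.0 CPM, and the Smo-KO livers had 57.6, 54.6, 105 and 58.5 CPM. Smo-KO mouse 3 was above control mice 1 and 4, and the other Smo-KO livers were below all controls. The means were 104 ± 30.7 and 68.9 ± 24.0 CPM (log2 fold change -0.59, standard error 0.23). Its exons overlap those of Olfr56 on the same strand over 111 bases and of Gm12188 on the opposite strand over 106 bases, and whether strand was used in counting is not given in the sources used here.

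The effectors of chromosome 18 differed widely among themselves. Iigp1 (bases 60376027 to 60392634, plus strand) encodes Irga6, a well-studied effector that assembles on vacuoles. It had the most reads of the family, with 339, 656, 587 and 432 CPM in control livers and 340, 469, 608 and 400 CPM in Smo-KO livers. The groups covered almost the same range (503 ± 144 and 454 ± 115 CPM, log2 fold change -0.15, standard error 0.21). The sign of this difference rested on control mouse 2, without which the log2 fold change was 0.01.

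Gm4841 (bases 60268305 to 60273272, minus strand), a relative of Iigp1 in the same cluster, showed the opposite extreme. Control mice 1 to 4 had 23.9, 42.7, 47.5 and 30.8 CPM, and Smo-KO mice 1 to 4 had 12.5, 12.9, 22.7 and 10.5 CPM. No Smo-KO liver reached the lowest control, although control mouse 1 and Smo-KO mouse 3 came close to each other. The means were 36.2 ± 10.8 and 14.6 ± 5.48 CPM (log2 fold change -1.32, standard error 0.25).

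Gm4951 (bases 60212080 to 60247820, plus strand), a further gene of the cluster, varied like Iigp1. It had 54.2, 97.3, 93.8 and 60.6 CPM in the controls and 54.5, 83.7, 76.2 and 56.2 CPM in the Smo-KO livers. The ranges overlapped almost fully (76.5 ± 22.2 and 67.7 ± 14.5 CPM, log2 fold change -0.18, standard error 0.20).

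Irgq (chromosome 7, bases 24530689 to 24538600, plus strand) is a divergent member that belongs to neither class and has been linked to autophagy. Its control values were 28.1, 26.4, 27.1 and 22.6 CPM, and its Smo-KO values were 18.3, 17.6, 17.8 and 15.8 CPM. The groups were well apart, and the livers of a group lay close together. The coefficient of variation was 9.36% in controls and 6.25% in Smo-KO livers, while in controls it was 25.8% (Igtp) or more in each of the other members. The means were 26.1 ± 2.44 and 17.4 ± 1.09 CPM (log2 fold change -0.59, standard error 0.11).

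**Figure D2:**
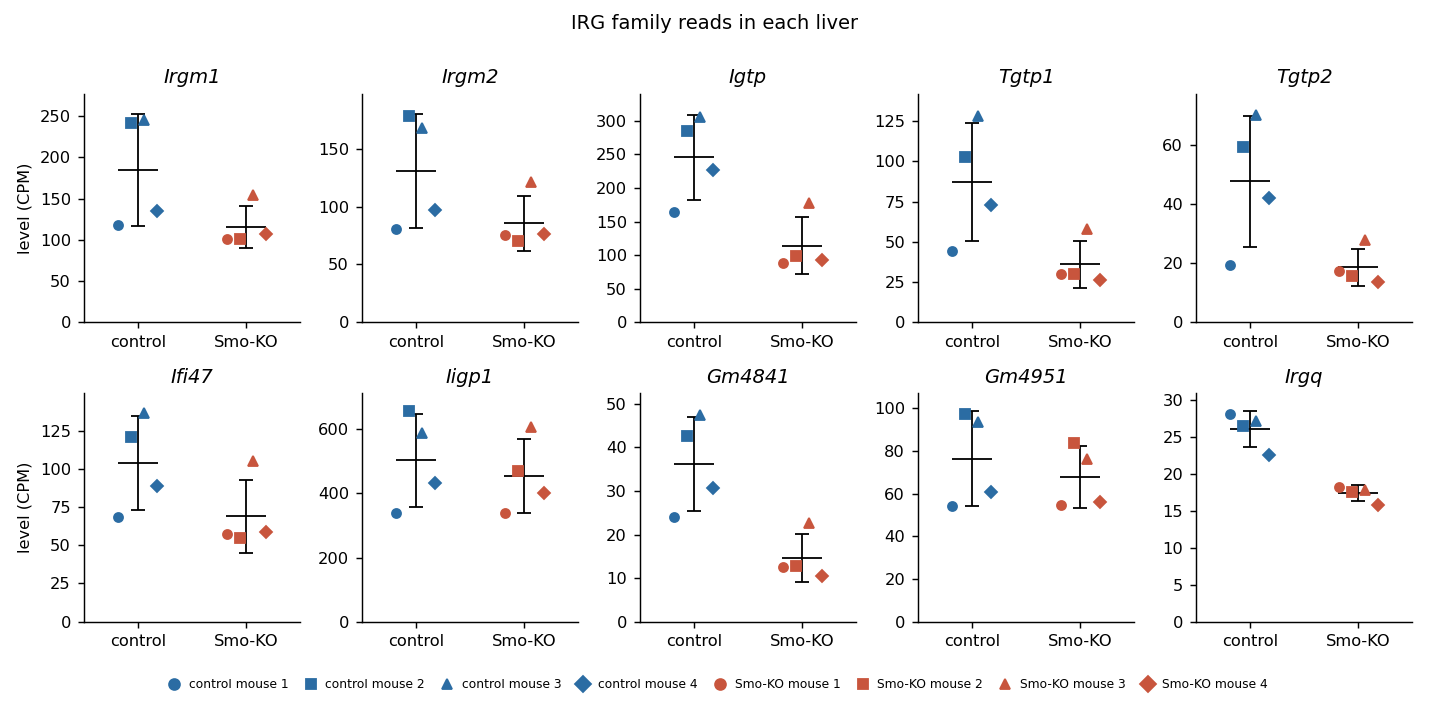
Level of each IRG gene in CPM (y axis, from 0) in 4 control (blue) and 4 Smo-KO (red) livers, with the symbol marking the mouse number and black bars the mean and SD. Gm4841 and Irgq have no overlap between the groups, Iigp1 and Gm4951 overlap almost fully, and Smo-KO mouse 3 is the highest Smo-KO liver in 8 panels.

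With Irgq apart, the same livers were high or low among the controls for most members, and among the Smo-KO livers mouse 3 stood out. Control mouse 1 was the lowest control for each of the 9 other members, and control mice 2 and 3 were the highest for 3 and 6 of them. Smo-KO mouse 3 was the highest Smo-KO liver for 8 of the 9, the exception being Gm4951, for which it was mouse 2. The other 3 Smo-KO livers had no common order, and each was the lowest for 3 of the 9 genes. Summed over the 9 genes, the controls had 913, 1784, 1783 and 1185 CPM and the Smo-KO livers 777, 936, 1350 and 841 CPM. Livers of 1 group thus differed widely, and Smo-KO mouse 3 was above control mice 1 and 4. Without Smo-KO mouse 3, 8 of the 10 members had groups that did not overlap (5.46% of all genes), and without control mouse 1, 5 of the 10 (7.04% of all genes). Both livers were singled out after the values were seen, and nothing in the labels sets them apart. Smo-KO mouse 3 was the library with the fewest reads, and the part of depth in its values was not tested.

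**Figure D3:**
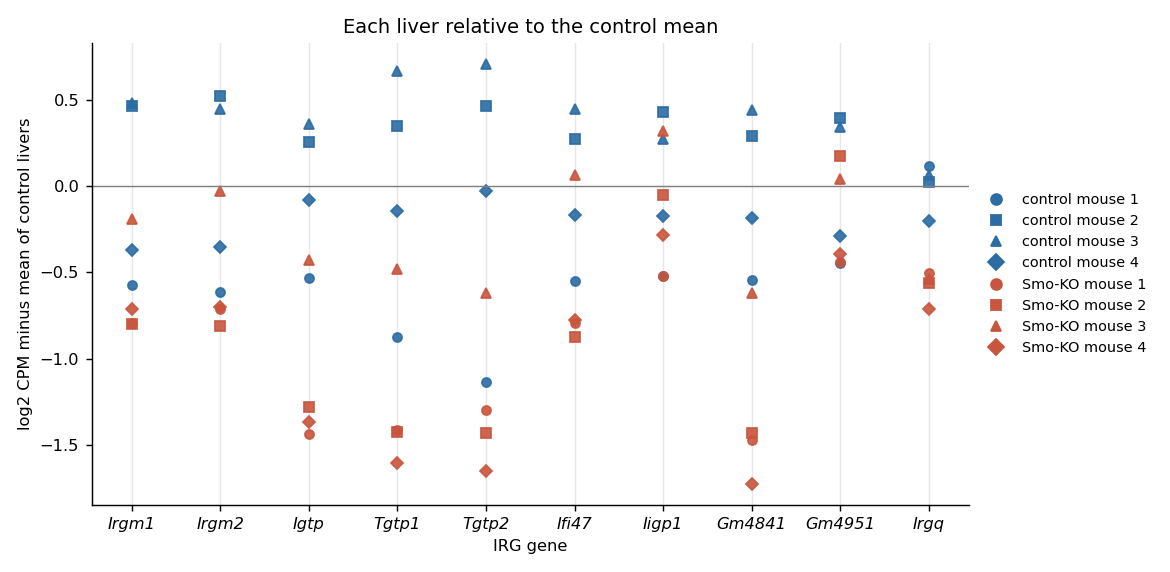
Level of each IRG gene in each liver as the difference in log2 CPM from the mean of the control livers (y axis), for 10 genes (x axis); blue symbols are control and red symbols Smo-KO mice. Control mice 2 and 3 are above 0 for all 10 genes and control mouse 1 is below 0 for all but Irgq, and Smo-KO mouse 3 is above the other Smo-KO livers for 8 genes.

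Because a level that all members share cancels in the ratio of 2 members of one liver, ratios show whether the genes kept their proportions. The ratio of Ifi47 to Gm4841 was 2.86, 2.84, 2.87 and 2.89 in control mice 1 to 4, although the level of each gene varied about 2-fold between these livers. Its SD in controls (0.0235) was the smallest of the 45 pairs, so this pair is an extreme and does not stand for the others. The pairs printed were not picked by a rule. In Smo-KO mice 1 to 4 the ratio of Ifi47 to Gm4841 was 4.62, 4.25, 4.62 and 5.60, clear of the controls. For Iigp1 to Gm4841 the ratio was 14.2, 15.4, 12.4 and 14.0 in controls and 27.3, 36.5, 26.8 and 38.3 in Smo-KO livers. Igtp and Irgm2, neighbors on chromosome 11, share 162 exon bases on the same strand (8.01% of those of Igtp), and 5.16% of the 100-base windows of Igtp are also in Irgm2, so some of their reads may be divided between them. Their ratio was 2.04, 1.6, 1.82 and 2.33 in controls and 1.17, 1.40, 1.47 and 1.22 in Smo-KO livers. Groups that did not overlap were found for 20 of the 45 pairs of members (44.4%), against 7.37% of all pairs of tested genes. Pairs share genes and are not independent, and the ratios come from the comparison that chose the family, so the count is a description.

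Other pairs overlapped between the groups. Irgm1 to Irgm2 lay between 1.36 and 1.46 in controls and between 1.27 and 1.43 in Smo-KO livers. Iigp1 to Gm4951 lay between 6.25 and 7.12 in controls and between 5.61 and 7.97 in Smo-KO livers. Tgtp1 to Tgtp2 lay between 1.74 and 2.27 and between 1.74 and 2.08. Sorted by log2 fold change, Iigp1 and Gm4951 had little difference between the groups. Irgm1, Irgm2, Ifi47 and Irgq were near -0.6, and Igtp, Tgtp1, Tgtp2 and Gm4841 beyond -1.1. These sets have no sharp bounds, as Irgm1 (-0.68) and Igtp (-1.11) each had a standard error of 0.23. Some ratios between the sets overlapped too, as Irgm1 to Tgtp1 (1.85 to 2.67 in controls and 2.66 to 4.05 in Smo-KO livers). Igtp to Irgm2, also between sets, did not. The sorting comes from the comparison that chose the family, and it followed neither the class nor the chromosome. Of the members with the GAS and ISRE in a row, Irgm2 was at -0.61 and Igtp, Tgtp1 and Tgtp2 were between -1.36 and -1.11.

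**Figure D4:**
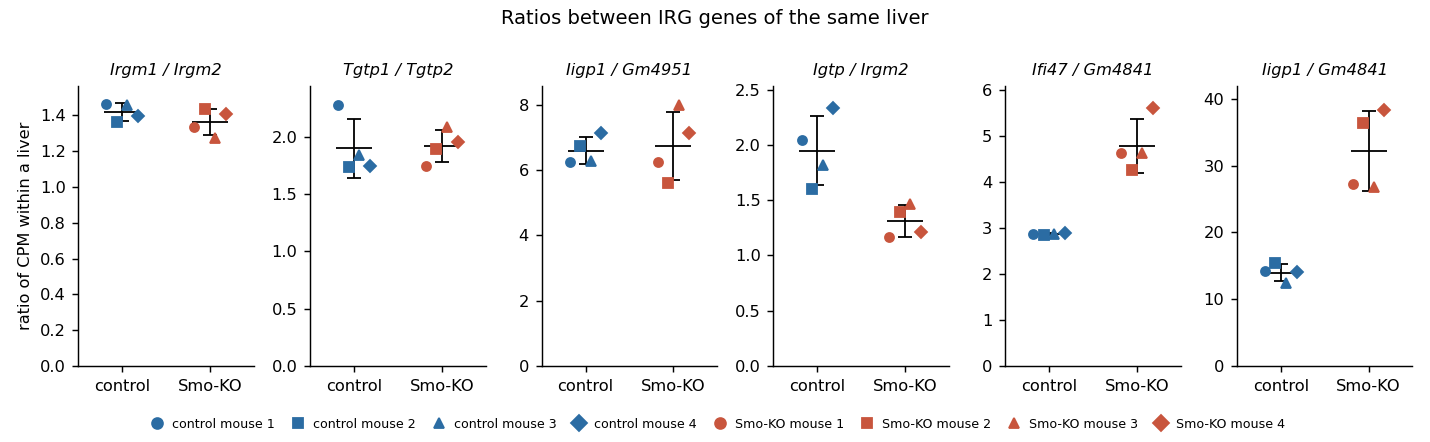
Ratio of the CPM of 2 IRG genes within each liver (y axes, from 0) for 6 pairs in 4 control (blue) and 4 Smo-KO (red) mice, with the mean and SD in black. The 3 pairs on the left overlap between groups, and Igtp to Irgm2 (lower), Ifi47 to Gm4841 and Iigp1 to Gm4841 (both higher in Smo-KO) do not.

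Levels of different genes were compared as reads per kilobase of merged exons, scaled to library size as CPM are (RPKM). In the controls Igtp was highest at 121 ± 31.4 RPKM, then Iigp1 at 86.4 ± 24.8 and Ifi47 at 41.9 ± 12.4. Irgm2 (35.5), Irgm1 (31.9), Gm4951 (28.9), Tgtp1 (27.2), Tgtp2 (16.2) and Gm4841 (12.8 RPKM) followed, and Irgq was lowest at 4.28 ± 0.401. Of the neighbors in this order, the control ranges were apart between Iigp1 and Ifi47 and between Gm4841 and Irgq, and overlapped for the other pairs. In the Smo-KO livers Iigp1 (78.0 ± 19.8 RPKM) was above Igtp (56.4 ± 21) in 4 of 4 mice, whereas Igtp was above Iigp1 in 4 of 4 controls. This order depended on the gene length used, since Iigp1 was highest in 8 of 8 livers with the length of the longest transcript.

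The files held 8 further IRG genes, and 5 of them had enough reads for the test. Gm12250, which corresponds to Irgb10, an effector that also attacks bacteria, had 20.5, 61.1, 59.5 and 30.4 CPM in the controls and 11.7, 13.1, 31.0 and 11.3 CPM in the Smo-KO livers. Again control mice 2 and 3 and Smo-KO mouse 3 were high in their groups, and the difference did not pass the test (log2 fold change -1.37, standard error 0.37, edgeR adjusted p = 0.167). Gm12185 (-0.85, edgeR adjusted p = 0.318), F830016B08Rik (-0.40, 0.430), Gm5431 (-0.36, 0.514) and 9930111J21Rik1 (-0.02, 0.985) did not pass either. 9930111J21Rik2 and Irgc1 had too few reads, and Gm18853 had 0 reads in every liver.

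The interferon pathway around the family was followed in 99 genes of 9 lists, of which 92 were tested. No gene passed the adjusted threshold in edgeR (lowest adjusted p = 0.116). At an unadjusted p under 0.05, 30 were lower (32.6%, against 7.15% of all genes) and 1 was higher (1.09%, against 6.70%), and 13 passed as lower with DESeq2 (0.655% of all genes did). The median log2 fold change of the 92 genes was -0.27. All these genes were measured in the same livers, and they are not independent of the IRG genes.

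The ligand itself, Ifng, was near the limit of detection, with 1, 0, 6 and 5 reads in control mice 1 to 4 and 0, 0, 4 and 2 reads in Smo-KO mice 1 to 4. Its receptor subunits Ifngr1 (log2 fold change 0.07) and Ifngr2 (0.16) and the kinases Jak1 (-0.12) and Jak2 (-0.05) were close to 0, and none of these 4 had an unadjusted p under 0.05. Among 9 interferon transcription factors, 3 were lower at an unadjusted p under 0.05 (7.15% of all genes). These were Irf1, a main activator of IRG and GBP genes (-0.49, adjusted p = 0.132), Batf2 (-1.07, 0.116) and Ciita, the master regulator of MHC class II (-0.89, 0.116). Irf1 had 126, 122, 105 and 121 CPM in the controls and 97.1, 72.2, 90.7 and 77.4 CPM in the Smo-KO livers. Its groups did not overlap, and control mouse 1, the lowest control for 9 IRG genes, was the highest here. Irf7 (-0.14) and Stat2 (-0.05), abundant in both groups, had edgeR adjusted p-values of 0.740 and 0.902. Of 6 negative regulators, 3 were lower without adjustment, with Socs1, the feedback inhibitor of Jak kinases, at -1.27 (edgeR adjusted p = 0.140), Il18bp, which binds interleukin 18, at -0.45 (0.146) and the phosphatase Ptpn2 at -0.23 (0.331). Usp18, the most abundant of them, was at -0.13 (0.845).

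None of the 4 receptor genes of type I and III interferon was called without adjustment, with log2 fold changes from 0.04 (Ifnar2) and 0.17 (Ifnar1 and Il10rb) to 0.29 (Ifnlr1). Nor was any of the 5 tested genes of the cytokines upstream of interferon gamma and their receptors, which ranged from -0.58 (Il12rb1) and -0.44 (Il18rap) to 0.08 (Il18) and 0.29 (Il15ra). The guanylate-binding proteins (GBPs), large interferon-induced GTPases that act on vacuoles beside the IRGs, were all lower in their means. The median log2 fold change of the 11 genes was -0.74, and 8 had an unadjusted p under 0.05 (7.15% of all genes were lower at this level). The smallest adjusted p was that of Gbp2b (-0.90, standard error 0.23, edgeR adjusted p = 0.156), followed by Gbp6 (-1.01, 0.156) and Gbp10 (-0.86, 0.163). The abundant Gbp11 (-0.16, edgeR adjusted p = 0.738) and Gbp9 (-0.27, 0.541) were nearer to 0. Among other targets of interferon gamma, 12 of 19 were lower without adjustment, with a median of -0.32. They included the chemokine Cxcl9, which draws T cells (139 ± 41.2 and 47.8 ± 28.8 CPM, log2 fold change -1.55, edgeR adjusted p = 0.116). Cxcl10, a chemokine of the same receptor, was at -1.17 (edgeR adjusted p = 0.146), the protease inhibitor Serpina3g at -0.67 (0.156) and Cd74, the invariant chain of MHC class II, at -0.63 (0.175). The abundant MHC class I subunit B2m was at 0.08 (edgeR adjusted p = 0.743).

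The targets of type I interferon had a median log2 fold change of -0.51 over 20 genes. Isg15, Oasl1 and Cmpk2, 3 of the 20, were lower at an unadjusted p under 0.05 (7.15% of all genes). The spread of these targets within the controls was wide, as for Cmpk2 with 40.1 ± 27.1 CPM against 21.2 ± 6.01 CPM in Smo-KO livers (edgeR adjusted p = 0.323). Bst2, the most abundant of them, was at -0.04 (adjusted p = 0.878). The ATG8 proteins and their conjugation machinery, which direct IRGs and GBPs to their membranes, had a median of 0.04 over 13 genes. Map1lc3b was the 1 gene of this list called without adjustment, and it was higher (0.20, edgeR adjusted p = 0.308). The receptor Sqstm1 was at -0.22 (0.448), Gabarapl1 at 0.05 (0.858) and Atg5 at -0.19 (0.407).

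**Figure D5:**
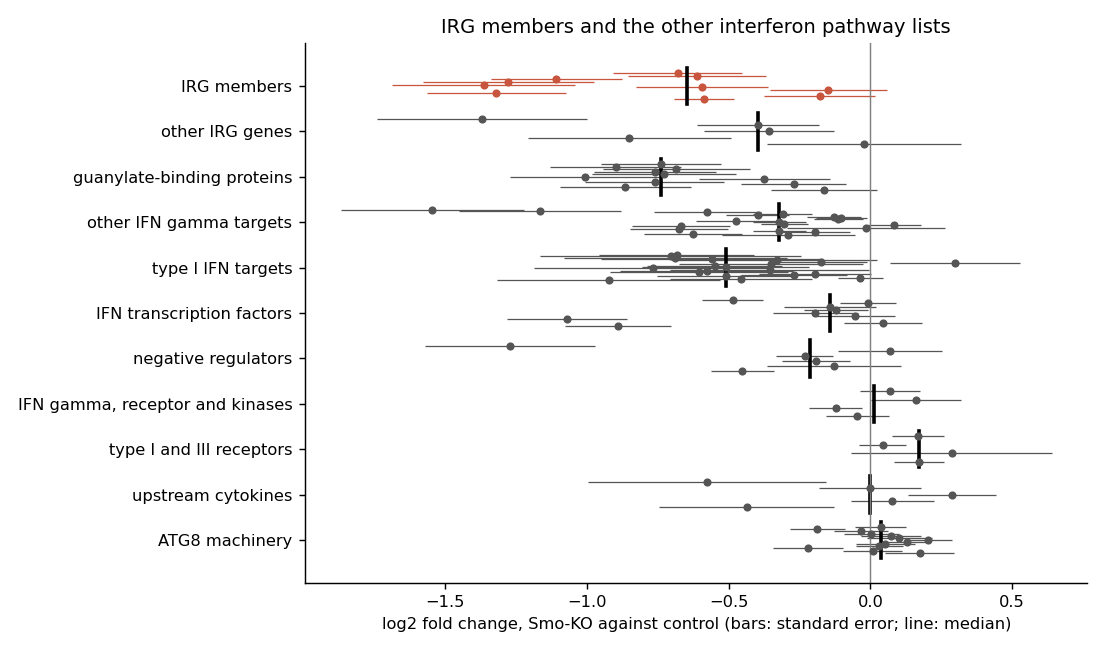
Log2 fold change of Smo-KO against control (x axis) for each gene of the IRG family (red) and of the other lists (grey), with bars for the standard error and a black line at the median of the genes drawn. In the list with interferon gamma and its receptor 1 gene is not drawn. The medians are -0.65 for the IRG members and -0.74 for the guanylate-binding proteins, and 0.04 for the ATG8 machinery.

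Markers of the cells that a liver holds were read in the same libraries, 82 genes in 11 lists with 73 tested. None passed the adjusted threshold in edgeR, 16 were lower (21.9%, against 7.15% of all genes) and 3 higher (4.11%, against 6.70%) without adjustment. With DESeq2 7 passed in either direction, as did 167 of the 12977 genes. T cells and NK cells are the cells that make interferon gamma. Of 10 T cell genes 9 were lower without adjustment, among them Cd8a (log2 fold change -0.77, edgeR adjusted p = 0.116) and Cd247 (-1.32, 0.126), and Themis, a T cell signaling gene, was higher (0.96, 0.0957). Summed over the 10 genes the controls had 59.8, 59.1, 57.8 and 74.4 CPM and the Smo-KO livers 39.4, 47.2, 61.1 and 55.8 CPM. These sums overlapped between the groups. Themis was the most abundant gene of the list and the 1 that was higher. Without it the sums were 48.9, 47.4, 48.7 and 61.2 CPM against 23.7, 21.3, 35.9 and 35.3 CPM, with no overlap. Themis was left out after the values were seen, so nothing is read from that separation. Taken singly, 5 of the 10 genes were lower with no overlap (4.34% of all genes).

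Of the 11 NK cell and ILC1 genes 6 were tested and 4 were lower without adjustment (7.15% of all genes). Il2rb was at -1.25 (edgeR adjusted p = 0.0957) and Nkg7, the most abundant, at -0.94 (0.140). The sums over the 11 genes were 36.4, 47.5, 36.6 and 45.0 CPM in the controls and 21.8, 17.8, 28.8 and 24.7 CPM in the Smo-KO livers. The defining genes Ncr1 and Klrb1c were below 1 CPM on average in both groups, and no gene of either list was at 0 in all livers. Control mouse 1, the lowest control for 9 IRG genes, was second highest of the controls in the T cell sum and lowest in the NK cell sum, and Smo-KO mouse 3 was the highest Smo-KO liver in the T cell and NK cell sums. The part of these cells in the IRG levels was not tested.

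In the other lists fewer genes were called. Lyz2 (0.31, edgeR adjusted p = 0.219) and Trem2 (0.75, 0.0957), expressed by macrophages that enter the liver, were higher without adjustment. Cps1 of hepatocytes (-0.33, 0.218), Pecam1 of endothelium (-0.50, 0.292) and Col1a1 of stellate cells (-0.37, 0.248) were lower without adjustment. Each was the 1 gene called of its list, and the medians were -0.08 over 10 hepatocyte genes (6 with a log2 fold change below 0 and 4 above), -0.26 over 6 endothelial genes (5 and 1) and 0.07 over 7 stellate cell genes (3 and 4). Over the 8 macrophage genes the median was 0.19 (2 below 0 and 6 above). No gene was called in the lists of Kupffer cells, B cells, dendritic cells, neutrophils or cholangiocytes. The most abundant genes of these lists were Cd5l (590 ± 136 and 563 ± 131 CPM) for Kupffer cells, Cd79b (3.10 ± 0.935 and 3.51 ± 0.944 CPM) for B cells and Itgax (38.3 ± 5.03 and 42.2 ± 5.87 CPM) for dendritic cells. Of the neutrophil genes Ly6g had 0 reads in all livers.

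To find genes that varied from mouse to mouse as the IRGs did, each gene was centered on its group means, which removes the comparison between groups, and its profile over the 8 livers was set against the mean profile of the 9 members without Irgq. The measure was the root mean square distance between standardized log2 CPM, with a median of 1.42 over all tested genes. The closest gene outside the members was Gm12250 (0.118), followed by Gbp10 (0.147), Gbp7 (0.177) and Zc3hav1 (0.177), an antiviral RNA-binding protein. Il17rb, Rnf19a, Slc25a30, Phf11a, Trim25 and Spats2l made up the rest of the 10 closest genes, at up to 0.255. The members themselves were at 0.189 (Tgtp1) to 0.563 (Gm4951), and Irgq was at 1.31. Gm12250 and Gbp10 stayed among the 10 closest when any 1 of the 8 livers was left out, whereas Rnf19a, Trim25 and Spats2l did so in 1 of 8 cases. With 8 livers many genes can come close, and the distances are a description.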

How the data were processed

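The authors isolated RNA from liver and deposited 1 table per mouse with read counts per gene symbol. The submitters' processing notes name fastp, STAR 2.7.5, featureCounts 2.0.1 and the build GRCm38, while the closing lines of the deposited count tables look like those of htseq-count. The annotation and the use of strand or of multiply mapped reads are not given in the sources used here, and such settings decide how reads of close paralogs such as Tgtp1 and Tgtp2 are divided. Reads outside genes (7.56% to 9.68%) and ambiguous reads (2.45% to 2.61%) were left out of library sizes.

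Counts were analysed with edgeR 4.0.16 in R 4.3.3 (filterByExpr, TMM normalization, quasi-likelihood fit of control against Smo-KO with no covariate, Benjamini-Hochberg adjustment over 12977 genes, threshold 0.05), and the fit was tested on simulated data. CPM used TMM-scaled library sizes, and log2 CPM a prior count of 2. DESeq2 1.42.0, other normalizations and filters, a replicate block, summed paralogs and leaving out each mouse were alternatives. The number of reads limits the precision of each value, and ± gives the SD over mice. The labels name separate mice, so p-values measure the spread between them. Libraries of a group differed by more than sampling noise (chi-square per degree of freedom 6.54 to 14.5). Gene positions and exon lengths came from GENCODE M21 and promoters from RefSeq GRCm38.p6. The members and the lists were chosen with earlier results of these data known. Named were all members, the other IRG genes, Smo, the most abundant genes and those with the smallest p of each list, and the 10 genes closest to the IRG profile. Ifng, Ifngr1, Jak2, Cd247, Ncr1, Klrb1c and Ly6g were named beyond this rule after their values were seen, and of the marker genes a selection is printed. In the pathway lists, 1 gene enters the counts and is not reported here.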

Additional observations from a re-analysis of the deposited data

Results flagged for a closer look

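In 74 groups of 4 values examined, 11 had 1 liver that stood apart from the other 3 by Dixon's 95% criterion, where about 3.7 would by chance, and the genes concerned are not independent of each other. Smo-KO mouse 3 was far above the other Smo-KO livers for 6 IRG genes. It had 154 CPM of Irgm1 (others 101 to 107), 121 CPM of Irgm2 (70.4 to 76.0) and 177 CPM of Igtp (88.2 to 98.3). It also had 57.9 CPM of Tgtp1 (26.4 to 30.2), 105 CPM of Ifi47 (54.6 to 58.5) and 31.0 CPM of Gm12250 (11.3 to 13.1). In reads on genes this library was the smallest, with 8203299 against 9367795 to 9543675 in the other Smo-KO livers, and it had the highest sum of dendritic cell markers, 73.9 CPM against 56.0 to 58.7 CPM. The part of depth and of these cells in the IRG values was not tested.

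Another 3 values stood apart. That of control mouse 1 was low, and this liver was also the lowest control for the 9 members without Irgq. Gm5431 was at 3.71 CPM in Smo-KO mouse 2 (others 5.76 to 5.85), 9930111J21Rik1 was at 0.681 CPM in control mouse 1 (1.19 to 1.26), and the sum of T cell markers was 74.4 CPM in control mouse 4 (57.8 to 59.8).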

How the results depend on the processing

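The sign of the log2 fold change was the same as reported in 131 of 132 repeats of the member values. The exception was Iigp1, at 0.0093 without control mouse 2 (range without 1 mouse -0.32 to 0.0093). The median of the members was between -0.86 and -0.54 when 1 mouse was left out. The number of members past the adjusted threshold, 0 as reported, was 2 with DESeq2 and 5 with no filter on low counts. It was 0 to 2 without 1 mouse (1 without control mouse 1, 1 without Smo-KO mouse 1 and 2 without Smo-KO mouse 3). Over all genes, 167 of 12977 passed with DESeq2 and 61 of 18284 with no filter. Likewise 5 of 13093 genes passed without control mouse 1, 78 of 13067 without Smo-KO mouse 1 and 4 of 13100 without Smo-KO mouse 3. Members with an unadjusted p under 0.05 numbered 6 to 8 without 1 mouse. Over all genes the number ranged from 1244 of 13100 (without Smo-KO mouse 3) to 2332 of 13067 (without Smo-KO mouse 1). In the pathway lists 13 genes passed with DESeq2, 5 with no filter and 0 to 1 without 1 mouse, and in the marker lists 7, 3 and 0 to 2. Smo passed with DESeq2 (-0.87), with no filter (-0.88) and without Smo-KO mouse 1 (-1.0), and ranged from -1.0 to -0.81 without 1 mouse. Members whose groups did not overlap numbered 2 as reported, 5 without control mouse 1 and 8 without Smo-KO mouse 3, 2 settings chosen after seeing the data. With the length of the longest transcript Iigp1 had the highest RPKM in 8 livers, against 4. Of the 10 closest genes 4 stayed when group means were kept and 2 to 6 without 1 mouse. The cause of these differences was not tested.

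Livers of the 2 groups share numbers in the labels, which do not say what the numbers mark. Deviations from the group mean correlated at 0.104, 0.187, 0.0611 and 0.113 for same-numbered livers. For other combinations they correlated at -0.205 to 0.157. The same-numbered Smo-KO liver was the closest for control mice 2, 3 and 4, and Smo-KO mouse 4 for control mouse 1. These weak correlations do not settle whether the numbers mark pairs, and the main fit used no block. With a replicate block 3 members, 1 marker gene and 8 of all genes passed the threshold, and Smo and the pathway lists had no call past it. Without adjustment the block gave 32 pathway genes (31 as reported), 20 marker genes (19 as reported) and 2115 of all genes (1797 in the main fit). Depth limits Ifng and the NK cell genes that had too few reads for a test.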
